A study of Mus musculus with 15 samples.

Results

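The hypothalamus and the hippocampus were compared gene by gene over 3 diets, with 1 RNA-Seq library for each region and diet, so 6 of the 15 libraries in the series. The mice were male C57BL/6 mice that had been fed ad libitum (AL) and were killed at 5 months of age, mice on 40% dietary restriction (DR) for 1 month from 4 months of age and killed at 5 months, and mice that returned to AL feeding after the month of DR and were killed at 7 months (DR-AL). Each library was made from RNA pooled from 5 mice of a diet group, the labels name no transgene or other allele, and diet and age cannot be told apart in DR-AL. Both regions of a diet came from the same group of mice, so each hypothalamus library was set against the hippocampus library of its own diet, and the 3 diets served as the replicates of the region difference. Of 33603 loci in the table, 23589 had a gene name and 15703 of these had at least 10 counts on average over the 6 libraries and were tested. P-values measure the spread over these 3 pairs of pools, not over single mice.

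The hypothalamus lies at the base of the brain and joins the nervous system to the pituitary gland, and its neurons are sorted into small nuclei that release peptide hormones controlling feeding, water balance, growth, reproduction and arousal. The hippocampus belongs to the telencephalon and is built largely from glutamatergic granule cells of the dentate gyrus and pyramidal cells of the CA fields, with a network of synapses that is known for its plasticity. The regions arise from different parts of the embryonic forebrain under different sets of transcription factors.

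The promoters of the most region-restricted genes are shown first because their transcripts were almost all read in 1 region. The 100 bases upstream of the RefSeq transcription start are given 5′ to 3′ on the gene's strand (GRCm38.p6), with the motif TATAAA in capitals. Pmch (chr10:88090972-88091071, plus strand) encodes the precursor of melanin-concentrating hormone and Hcrt (chr11:100762932-100763031, minus strand) that of hypocretin, both of the lateral hypothalamus. Avp (chr2:130582589-130582688, minus strand) encodes vasopressin and Oxt (chr2:130576069-130576168, plus strand) oxytocin. Lct (chr1:128328319-128328418, minus strand) encodes lactase and is a known marker of dentate granule cells, and Neurod6 (chr6:55681264-55681363, minus strand) encodes a basic helix-loop-helix factor of telencephalic excitatory neurons.
Pmch: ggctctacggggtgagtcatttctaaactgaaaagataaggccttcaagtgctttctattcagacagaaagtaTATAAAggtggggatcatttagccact
Hcrt: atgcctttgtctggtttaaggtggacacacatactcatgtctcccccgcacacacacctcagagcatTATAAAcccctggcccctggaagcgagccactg
Avp: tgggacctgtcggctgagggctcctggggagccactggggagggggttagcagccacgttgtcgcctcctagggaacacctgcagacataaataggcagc
Oxt: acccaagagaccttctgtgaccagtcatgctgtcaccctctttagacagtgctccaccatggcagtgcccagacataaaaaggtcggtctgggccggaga
Lct: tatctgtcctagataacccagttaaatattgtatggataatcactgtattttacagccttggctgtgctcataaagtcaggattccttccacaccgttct
Neurod6: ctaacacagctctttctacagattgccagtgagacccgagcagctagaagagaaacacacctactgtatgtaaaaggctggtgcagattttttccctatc
TATAAA started 27 bases upstream of the start in Pmch and 33 bases upstream in Hcrt, and these letters did not occur in the other 4 windows. Among the 24 neuropeptide genes that were higher in the hypothalamus, 21 had an entry in the promoter table, and 4 of them (19%) held TATAAA, on the gene's strand, in the 250 bases upstream of the start, all 4 between 45 and 16 bases upstream. Of the 27025 promoters in the table, 8.12% held TATAAA in 250 bases and 2.36% between 45 and 16 bases upstream. Among tested genes the shares were 4.2% and 1.51%, over the 73.1% of them with an entry. CAGATG or its reverse complement CATCTG, an E-box form, occurred in 6 of the 21 (28.6%), in 14.5% of all promoters and in 10.4% of those of tested genes.

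The hypothalamus libraries held 29673910 to 32745522 counts on named genes and the hippocampus libraries 25159857 to 40500130. Across genes, log levels correlated at r = 0.983 to 0.989 between the hypothalamus libraries, at 0.990 to 0.992 between the hippocampus libraries and at 0.887 to 0.906 between regions, a description over genes that share each library's depth. Markers of neighbouring tissue differed between libraries of the same region. CPM values are counts scaled to the library's total after adjustment by its TMM factor. Choroid plexus genes (11 tested) summed to 58.2 to 79.2 CPM in the hypothalamus and 2002 to 3231 CPM in the hippocampus. Pituitary genes (7 tested) summed to 4.48 to 27.9 CPM in the hypothalamus and 0.899 to 1.40 CPM in the hippocampus. Meningeal fibroblast genes (10 tested) stood at 155, 338 and 74.2 CPM in the AL, DR and DR-AL hypothalamus against 308 to 321 CPM in the hippocampus. Thalamus and habenula genes (11 tested) summed to 508 CPM in the DR-AL hypothalamus and to 382 and 385 CPM in the other 2 hypothalamus libraries. The hippocampus had 168 to 184 CPM, so this sum was higher in the hypothalamus in each diet. The sum includes Slc17a6, and its members did not all follow it. Their median log2 difference (hypothalamus minus hippocampus) was -0.56 for the AL pair, -0.19 for the DR pair and 1.28 for the DR-AL pair. Striatum genes (10 tested) reached 542 CPM in the DR-AL hippocampus against 260 to 340 CPM in the other 5 libraries, and colon genes (10 tested) 33.7 CPM in the AL hypothalamus against 8.09 to 12.6 CPM. The part of dissection or carry-over in the region differences was not tested. In pooled tissue, fewer cells of a type and less RNA per cell cannot be told apart.

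**Figure D1:**
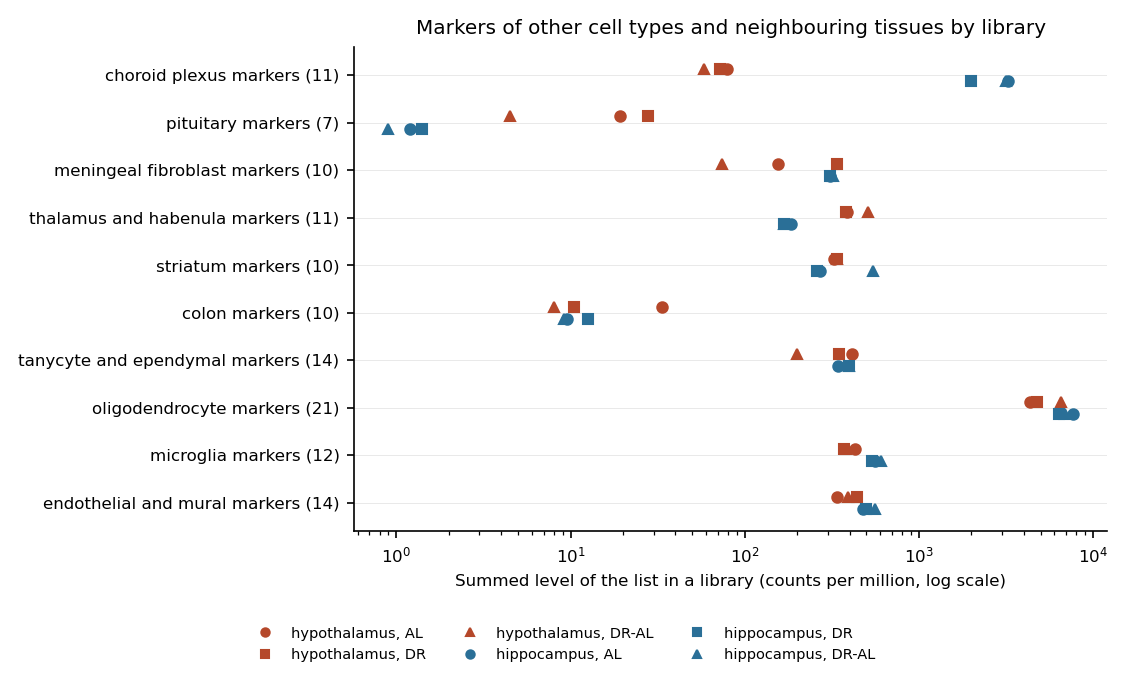
Summed level of each marker list in the 6 libraries, in CPM on a log axis, with colour for the region and shape for the diet and the number of tested genes in brackets. The sums of choroid plexus, pituitary, thalamus and habenula, microglia, and endothelial and mural genes do not overlap between the regions. The thalamus and habenula sum includes Slc17a6. Single libraries stand apart for striatal and colon genes.

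A gene was called when its Benjamini-Hochberg adjusted p in edgeR's quasi-likelihood test, with diet as a block, was under 0.05 and the regions differed by a fold of at least 2. By this rule 2143 genes (13.6% of those tested) were higher in the hypothalamus and 1489 (9.48%) higher in the hippocampus, so 59.0% of the called genes were higher in the hypothalamus. That split moved with the scaling and with the unit tested. When raw library totals replaced the TMM factors, the median difference of all genes shifted by 0.23 on the log2 scale and 71.8% of called genes were higher in the hypothalamus. On the authors' FPKM values, tested with limma, the median shifted by -0.21 with a pseudocount of 1 and by -0.29 with a pseudocount of 0.1, and 25.5% and 37.0% were higher in the hypothalamus. The following values are on the TMM scale, where the median log2 difference over all tested genes was 0.01.

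In every diet, with a fold of at least 2 within each diet, 1599 genes (10.2% of those tested) were higher in the hypothalamus and 1153 (7.34%) higher in the hippocampus. The fold was at least 4 in every diet for 545 and 360 of them, and at least 16 for 107 and 54. Genes of the hypothalamus set had lower counts, with a median of 182 counts per library against 1116 for the hippocampus set. Log2 differences within AL, DR and DR-AL correlated across genes at 0.93, 0.89 and 0.90 for the 3 pairs of diets.

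**Figure D2:**
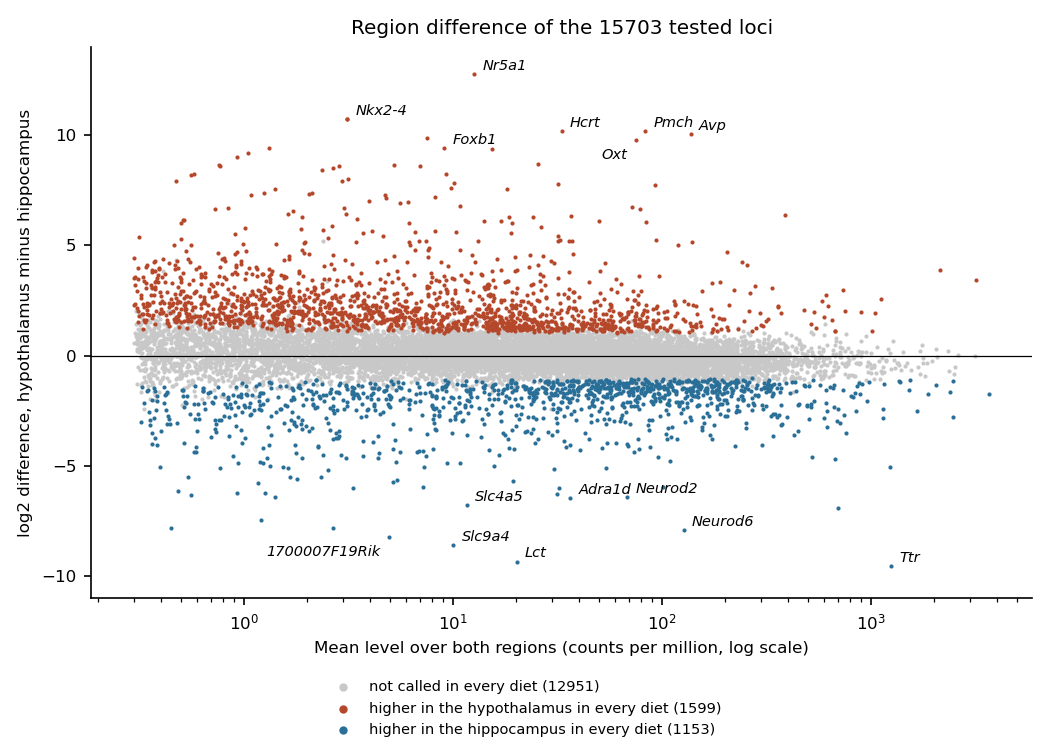
Log2 difference between the regions (y axis, hypothalamus minus hippocampus) against the mean level over both regions (x axis, CPM, log scale) for all 15703 tested loci, 1 point each. The 1599 genes higher in the hypothalamus in every diet are red and the 1153 higher in the hippocampus blue, and genes of the first 8 ranks in each direction that the text describes are named.

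Peptide precursors took 4 of the first 12 ranks of the hypothalamus side (Pmch, Avp, Oxt and Hcrt). Of 33 tested neuropeptide and hormone genes, 24 were higher in the hypothalamus, 23 of them in every diet, and 3 were higher in the hippocampus, against 13.6% and 9.48% of all tested genes. Their median log2 difference was 3.24. Nmu was below the count minimum. The counts that follow are in the order AL, DR, DR-AL. Pmch had 4179, 6062 and 6661 counts in the hypothalamus while the hippocampus had 7, 1 and 4 (166 ± 35.3 and 0.131 ± 0.0834 CPM, SD, n = 3). Every hypothalamus library was far above every hippocampus library, and the difference was 10.18 ± 0.18 on the log2 scale (SE, adjusted p = 2.86e-06). Hcrt had 679, 1705 and 4346 counts in the hypothalamus but 3, 1 and 0 counts in hippocampus libraries. The regions did not overlap, and the DR-AL hypothalamus was the highest library. Avp, made by magnocellular neurons that project to the posterior pituitary, had 13982, 8745 and 4920 counts against 5, 14 and 5. Oxt, made by a neighbouring population of the same nuclei, had 4960, 5230 and 4994 counts against 3, 12 and 0. Oxt was almost level over the hypothalamus libraries (150 ± 4.07 CPM) while Avp was highest in AL and lowest in DR-AL (275 ± 146 CPM). On the scale per transcript length, the mean FPKM in the hypothalamus was 631 for Avp, 329 for Oxt, 167 for Pmch and 106 for Hcrt.

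The peptides of the arcuate nucleus that control appetite were also set apart. Pomc, the precursor of the appetite-lowering melanocortins, had 2980, 1052 and 708 counts in the hypothalamus against 21, 22 and 12. The fold was 78.0 (adjusted p = 2.38e-05), and the AL library was the highest of the hypothalamus. Agrp, which blocks melanocortin receptors and raises feeding, had 440, 525 and 165 counts against 1, 2 and 5 (120-fold, adjusted p = 5.85e-05). Cartpt, which is made in part by Pomc neurons, had 2658, 1797 and 1815 counts against 55, 40 and 56 (36.6-fold). Npy, which Agrp neurons release with Agrp, did not pass the test, with 2527, 2458 and 790 counts in the hypothalamus against 1880, 1462 and 1183. Its regions overlapped: the DR-AL hypothalamus was the lowest of the 6 libraries in CPM.

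Of the hormones that act on the anterior pituitary, Ghrh (growth hormone release) had 511, 257 and 188 counts against 3, 1 and 2 (145-fold, adjusted p = 7.8e-06). Trh (thyrotropin release) had 2098, 4228 and 3739 against 35, 7 and 82 (68.3-fold). Gnrh1 (gonadotropin release) was low in both regions, with 101, 109 and 110 counts against 6, 3 and 4 (21.2-fold). Npvf, which encodes RFamide peptides that act on the reproductive axis, was at 0 in all 3 hippocampus libraries and at 107, 67 and 91 counts in the hypothalamus, at least 25.3-fold higher against a floor of 3 counts per library. Crh (corticotropin release) did not pass, with 50, 77 and 258 counts against 72, 36 and 58 (log2 difference 0.76 ± 0.37 SE, adjusted p = 0.113), and the DR-AL hypothalamus stood apart from the other 5 libraries. Sst (somatostatin), which inhibits growth hormone release and also marks interneurons, differed 1.74-fold in favour of the hippocampus and stayed under the fold of 2.

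Gal (galanin, 70.2-fold), Qrfp (59.3-fold), Nms (45.3-fold), Ucn3 (17.1-fold), Adcyap1 (11.1-fold), Kiss1 (9.47-fold), Tac1 (7.21-fold), Tac2 (6.69-fold), Pdyn (5.67-fold), Scg2 (4.05-fold), Nmb (3.39-fold) and Nts (2.93-fold) were higher in the hypothalamus in every diet. Penk was called at 2.5-fold but differed by 0.29 on the log2 scale in DR-AL, where the hippocampus library with high striatum genes had 2189 counts against 1084 and 820 in the other hippocampus libraries. Penk is itself a member of the striatum list, so its counts are part of that sum. The locus of Kiss1 carried a second name (Golt1a), so its counts may not be of Kiss1 alone. In the other direction, Cck had 7410, 5600 and 4526 counts in the hippocampus and 230, 677 and 646 in the hypothalamus (13.6-fold), Grp was 5.89-fold and Vip 2.12-fold higher in the hippocampus. These 3 peptides are known markers of cortical and hippocampal neurons, Vip of interneurons.

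**Figure D3:**
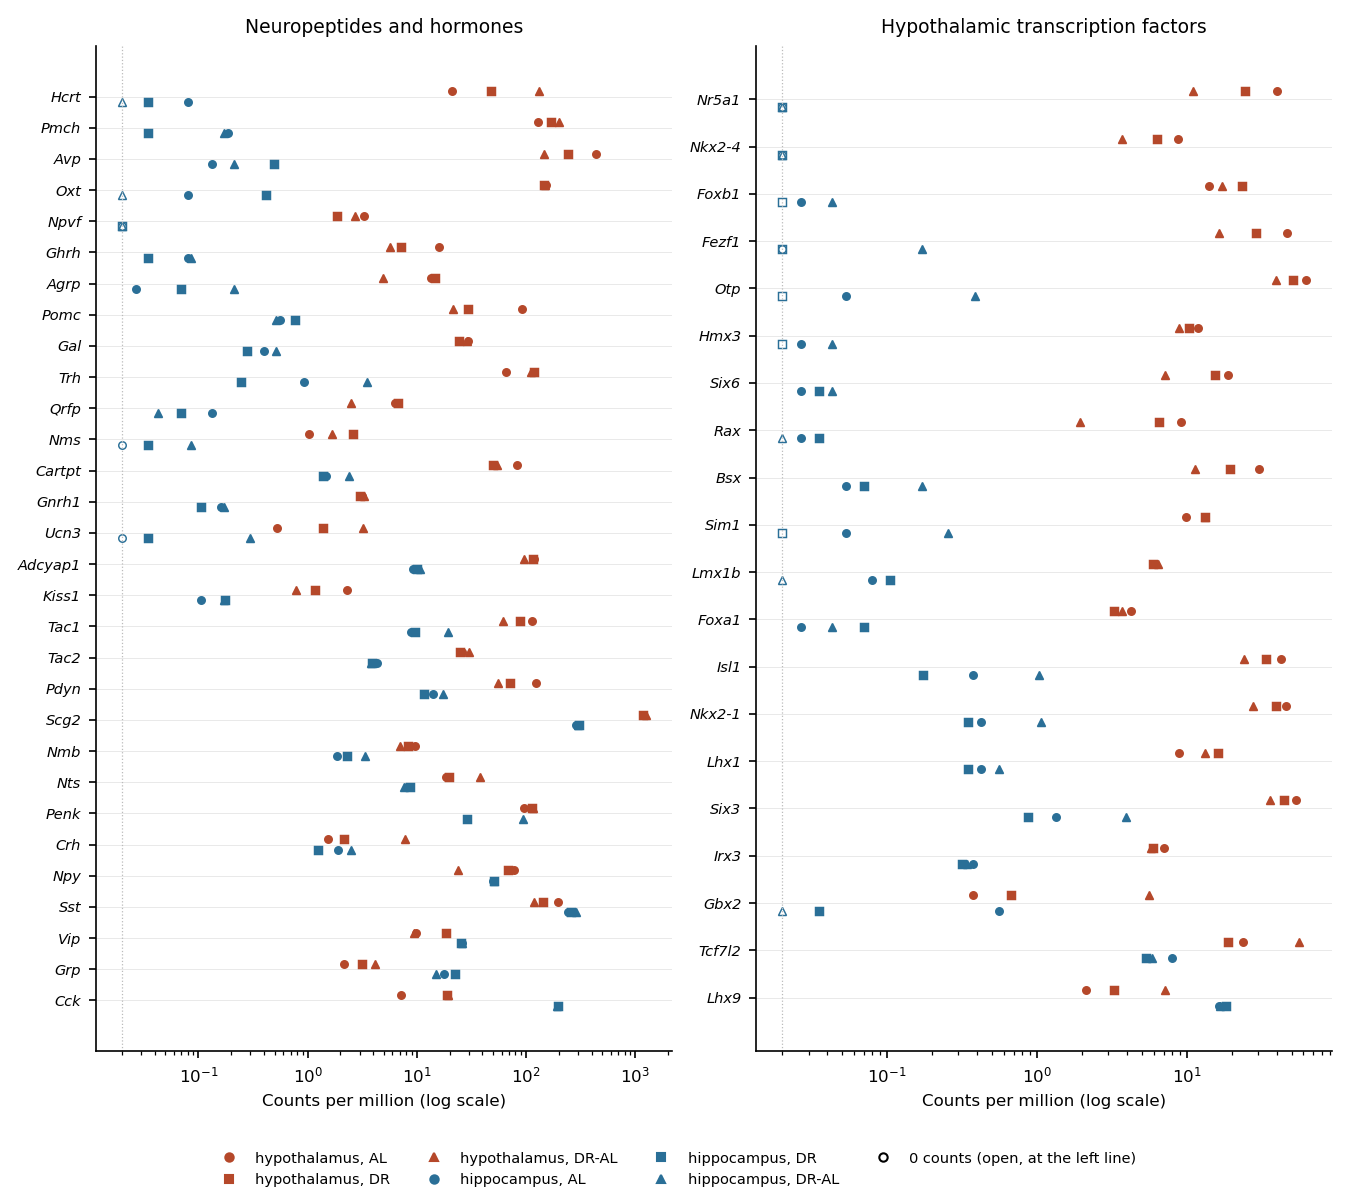
Level of the neuropeptides (left) and hypothalamic transcription factors (right) described in the text in each of the 6 libraries, in CPM on a log axis, red for the hypothalamus and blue for the hippocampus, with shape for the diet and open symbols at the left line for 0 counts. Genes are ordered by their log2 difference, and the regions do not overlap for the upper genes of either panel.

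Receptors of these peptides also included genes of both regions. Of 32 tested, 14 were called for the hypothalamus (43.8%) and 2 for the hippocampus (6.25%), beside 13.6% and 9.48% of all tested genes. Their median log2 difference was 0.88. Calcr, the calcitonin receptor, was the most restricted, with 1325, 1230 and 1118 counts against 5, 1 and 11 (188-fold, adjusted p = 1.22e-05). Brs3, a bombesin-type receptor whose loss causes obesity in mice, had 220, 209 and 177 counts against 4, 0 and 1. Both were level over the hypothalamus libraries and close to 0 in the hippocampus. Mc3r, a melanocortin receptor, had 559, 410 and 245 counts against 9, 8 and 13 (35.3-fold), while Mc4r, the other brain melanocortin receptor, had 158, 194 and 171 against 250, 189 and 147 and was not called. Avpr1a (10.9-fold), Ghsr, the ghrelin receptor (10.5-fold), Galr1 (10.2-fold), Hcrtr1 (7.19-fold), Tacr1 (5.92-fold), Tacr3 (3.73-fold), Hcrtr2 (3.13-fold) and Ghr (3.13-fold) were higher in the hypothalamus in every diet. Lepr, the leptin receptor, had 533, 512 and 277 counts against 249, 176 and 195. The fold was 1.82, not called, and the log2 difference in DR-AL was -0.01. Insr, the insulin receptor, was near equal (log2 -0.17 ± 0.05 SE). Sstr4 (7.87-fold) and Sstr3 (2.82-fold) were higher in the hippocampus. On log2(FPKM + 1) values 7 of these receptors were called for the hypothalamus and 4 for the hippocampus.

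Among 14 steroid and nuclear receptors, 5 were higher in the hypothalamus (35.7%) and 1 in the hippocampus (7.14%), beside 13.6% and 9.48% of all tested genes. The counts were 1 and 3 on log2(FPKM + 1) values and 3 and 4 with the pseudocount of 0.1. Nr5a1 (SF-1), which defines the ventromedial nucleus, had 1297, 878 and 368 counts in the hypothalamus and 0 in each hippocampus library, so it was at least 242-fold higher. Its relative Nr5a2 had 194, 130 and 48 counts against 2, 0 and 4. Both were highest in AL and lowest in DR-AL, and neither overlapped with the hippocampus. Esr1, estrogen receptor alpha, was 4.49-fold higher (not called on log2(FPKM + 1) values), with 654, 580 and 479 counts against 120, 102 and 109. Nr3c2, the mineralocorticoid receptor of hippocampal neurons, had 8781, 7142 and 4775 counts in the hippocampus and 965, 1073 and 849 in the hypothalamus (8.06-fold, adjusted p = 2.86e-06). The glucocorticoid receptor gene Nr3c1, by contrast, differed by -0.44 ± 0.06 (SE) and was not called.

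Transcription factors that pattern the hypothalamus were higher in the hypothalamus for most members: 32 of 40 tested were called for the hypothalamus, 30 of them in every diet, and 2 for the hippocampus, with a median log2 difference of 4.78. Foxb1, a mammillary factor, had 456, 832 and 571 counts against 1, 0 and 1. Its lowest hypothalamus count was in AL. Nkx2-4 had 282, 226 and 124 counts and 0 in each hippocampus library (at least 59.9-fold), Hmx3 385, 373 and 294 against 1, 0 and 1, and Six6 609, 555 and 240 against 1, 1 and 1. For Nkx2-4, Hmx3 and Six6 the AL hypothalamus had the most counts and DR-AL the fewest. Otp, needed for neurons that make Oxt, Avp, Crh and Trh, had 2006, 1841 and 1313 counts against 2, 0 and 9 (409-fold), and its partner Sim1 had 320, 472 and 438 against 2, 0 and 6. Nkx2-1 (65.3-fold) and Isl1 (69.2-fold), factors of the ventral hypothalamus and arcuate nucleus, Bsx (227-fold), Foxa1 (77.6-fold), Lmx1b (86.5-fold), Lhx1 (27.8-fold), Six3 (23.7-fold) and Irx3 (18.1-fold) were higher in every diet too. Tcf7l2 was 4.6-fold higher and called in every diet, with 1865 counts in the DR-AL hypothalamus against 770 and 675. That library also had the highest summed thalamus and habenula genes, of which Tcf7l2 is a member. Gbx2, a thalamic factor, had 12, 24 and 186 counts against 21, 1 and 0, and did not pass. Lhx9 was 4.44-fold higher in the hippocampus.

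Factors of the telencephalon showed the opposite pattern: 24 of 28 (85.7%) were higher in the hippocampus, 23 in every diet, and none in the hypothalamus. The shares of all tested genes were 9.48% and 13.6%. The median log2 difference of these factors was -2.67. Without any 1 of the 3 diets, 24 to 26 were called for the hippocampus by the same test. Neurod6 had 10564, 7941 and 4686 counts in the hippocampus and 12, 35 and 58 in the hypothalamus (242-fold, adjusted p = 1.08e-05). Neurod2, a related activator in excitatory neurons, had 4767, 4139 and 3147 counts against 9, 94 and 63 (85.9-fold). Tbr1 (30, 121 and 261 counts), Emx1 (1, 17 and 4), Slc17a7 (58, 1147 and 368) and Mas1 (1, 56 and 21) were lowest in the AL hypothalamus, so the size of these differences was not the same in each diet, although every diet gave the same direction. Zbtb18 (12.6-fold), Fezf2 (11.4-fold), Pou3f1 (11.1-fold), Bcl11b (9.29-fold), Lhx2 (7.56-fold), Mef2c (7.47-fold) and Emx2 (7.34-fold) were higher in the hippocampus in every diet too. The other 4 members were not called.

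Marker genes of the hippocampal fields were checked against the label. Of 18 dentate gyrus markers, 14 (77.8%) were higher in the hippocampus and none in the hypothalamus, beside 9.48% and 13.6% of all tested genes. Lct had 1505, 1375 and 772 counts in the hippocampus and 2 in each hypothalamus library, a log2 difference of -9.33 ± 0.14 (SE, adjusted p = 2.37e-06). Dsp, a desmosomal protein of granule cells, was 34.8-fold and Tdo2 21-fold higher, and Prox1, the granule cell factor, was 4.25-fold higher with 1065, 974 and 893 counts left in the hypothalamus. Calb1, also made by many hypothalamic neurons, differed by 0.89 ± 0.14 and stayed under the fold of 2. Among 11 CA1 markers, 8 (72.7%) were higher in the hippocampus, beside 9.48% of all tested genes. Fibcd1 (17.7-fold), Lefty1 (14.9-fold) and Nov (11.7-fold) led them. Dlk1, an imprinted gene, went the other way, with 14454, 13345 and 11988 counts in the hypothalamus against 370, 438 and 521 (25.9-fold). Of 17 CA2 and CA3 markers, 8 (47.1%) were higher in the hippocampus, among them Iyd (17.8-fold) and Rgs14 (7.94-fold). In the hypothalamus 2 were higher (11.8%, beside 13.6% of all tested genes), Amigo2 (3.85-fold) and Map3k15 (3.27-fold). Spink8, a serine protease inhibitor gene outside these lists, ranked 10 in the hippocampus with 510, 407 and 347 counts against 8, 7 and 8, nearly the same fold in each diet.

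Genes of glutamate and monoamine transmission were set apart. Of 20 genes for vesicular transport, synthesis and uptake, 10 were called for the hypothalamus and 4 for the hippocampus. The shares of all tested genes were 13.6% and 9.48%. On log2(FPKM + 1) values the counts were 7 and 1. The vesicular glutamate transporters changed places: Slc17a7 (VGLUT1) had 52182, 40977 and 30201 counts in the hippocampus and 58, 1147 and 368 in the hypothalamus (121-fold, adjusted p = 0.00033), and Slc17a6 (VGLUT2) had 8908, 9583 and 9330 counts in the hypothalamus against 1612, 950 and 733 (7.7-fold, adjusted p = 6.35e-06). For neither gene did the regions overlap. Per transcript length, VGLUT1 stood at 390 ± 26.3 FPKM in the hippocampus and VGLUT2 at 43.8 ± 2.25 FPKM in the hypothalamus. Th, which makes dopamine's precursor, had 1276, 1044 and 1413 counts in the hypothalamus against 18, 26 and 24 (47.4-fold). Hdc, the histamine-making enzyme of the tuberomammillary nucleus, was 36.7-fold higher, with 3447 and 2673 counts in the AL and DR hypothalamus and 1220 in DR-AL. Slc6a3, the dopamine transporter, was 36.4-fold higher and had its highest count, 756, in the DR-AL hypothalamus against 313 and 281. The monoamine vesicle transporter Slc18a2 (7.37-fold) and Ddc (6.4-fold) were higher as well. In the other direction, the serotonin-making enzyme gene Tph2 (59, 43 and 31 counts against 6, 13 and 16) and the noradrenaline-making Dbh (29, 15 and 13 against 7, 5 and 3) were higher in the hippocampus at low counts. Genes of GABA synthesis and vesicular loading stayed under the fold: Gad1 differed by -0.37 ± 0.07, Gad2 by 0.57 ± 0.08 and Slc32a1 by 0.65 ± 0.09 (SE), none called. The GABA transporter gene Slc6a11 (GAT3) stood at 995 ± 6.6 CPM in the hypothalamus and 180 ± 7.78 in the hippocampus (5.54-fold).

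NMDA receptor subunit genes were called in both directions. Grin2a, the NMDA receptor subunit GluN2A, had 7103, 6226 and 4526 counts in the hippocampus and 118, 103 and 102 in the hypothalamus (62.7-fold, adjusted p = 3.03e-06), and Grin2b had 23504, 21363 and 16409 against 3245, 3585 and 3359 (6.87-fold). Grin2d ran the other way, with 1557, 1799 and 2368 counts in the hypothalamus against 496, 392 and 358 (3.95-fold, adjusted p = 1.21e-05). The obligatory subunit gene Grin1 differed by -0.40 ± 0.06 and Grin2c by -0.23 ± 0.10 (SE), neither called. The regions did not overlap for Grin2a, Grin2b or Grin2d. The AMPA subunit genes Gria3 (2.67-fold), Gria2 (2.54-fold) and Gria1 (2.28-fold) were higher in the hippocampus, and Gria4 differed by 0.61 ± 0.05 in favour of the hypothalamus without reaching the fold. Of 25 glutamate receptor genes, 8 were called for the hippocampus and 3 for the hypothalamus. The hippocampus share was above the 9.48% of all tested genes, and the hypothalamus share was below the 13.6% of all tested genes.

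GABA and glycine receptor subunits divided evenly, 6 in each direction of 20 tested (30.0%), beside 13.6% of all tested genes for the hypothalamus and 9.48% for the hippocampus. Gabre, the epsilon subunit, had 2777, 2167 and 1454 counts in the hypothalamus against 11, 3 and 12 (223-fold, adjusted p = 6.58e-06), and Gabrq, the theta subunit, had 5580, 4608 and 4143 against 30, 31 and 57 (106-fold). These subunit genes lie on the X chromosome and are known from hypothalamic and monoaminergic neurons. The glycine receptor genes Glra1 (11.8-fold), Glra3 (6.19-fold) and Glra2 (2.97-fold) and the gamma subunit gene Gabrg1 (3.51-fold) were also higher in the hypothalamus. Gabrd, the extrasynaptic delta subunit of dentate granule cells, had 961, 731 and 568 counts in the hippocampus against 56, 113 and 143 (8.44-fold), at a locus that carries a second gene name. Gabra4 (3.29-fold), Gabrg3 (3.19-fold) and Gabra5 (2.92-fold) followed, each in every diet, whereas Gabrb2 was called but fell below the fold in 1 diet.

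**Figure D4:**
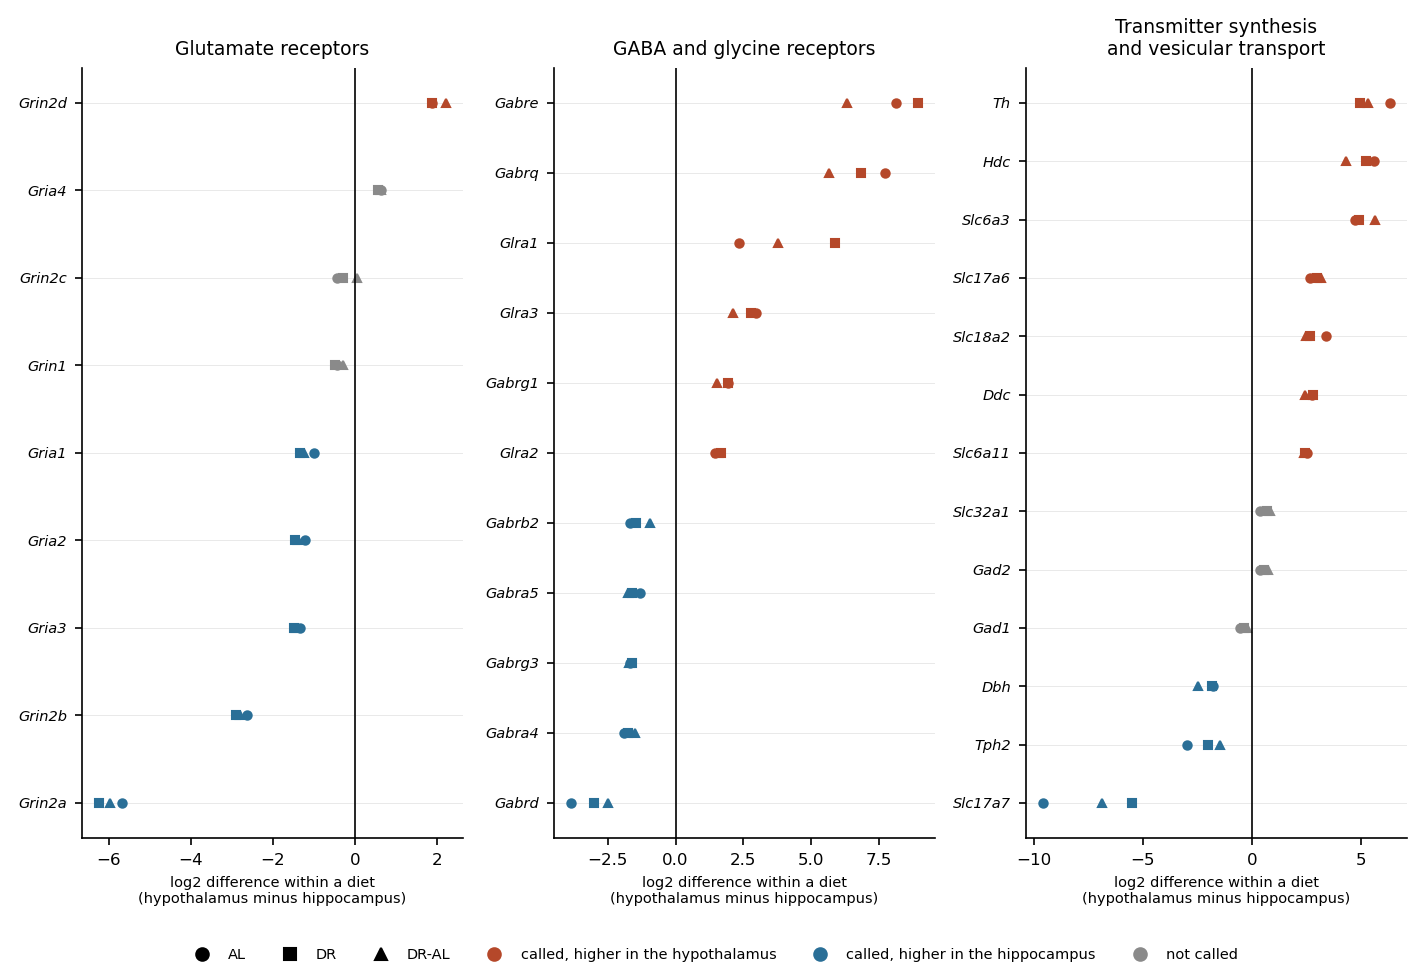
Log2 difference within each diet (x axis, hypothalamus minus hippocampus, shape for the diet) for the glutamate receptor genes, GABA and glycine receptor genes, and genes of transmitter synthesis, vesicular transport and uptake that the text describes. Red genes were called higher in the hypothalamus, blue higher in the hippocampus, grey not called, and Grin2a and Grin2d, Gabre and Gabrd, and Slc17a6 and Slc17a7 lie on opposite sides of 0.

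Of 34 monoamine and acetylcholine receptors, 13 were higher in the hippocampus (38.2%) and 7 in the hypothalamus (20.6%), beside 9.48% and 13.6% of all tested genes. The counts were 12 and 0 on log2(FPKM + 1) values. Adra1d, an alpha-1 adrenergic receptor, had 2461, 2255 and 1689 counts in the hippocampus against 12, 31 and 42 (86.9-fold, adjusted p = 5.85e-06), whereas its relative Adra1b was 2.39-fold higher in the hypothalamus. Chrm1, the main muscarinic receptor of pyramidal cells, was 12.1-fold higher in the hippocampus and Chrna5 18.8-fold higher. Chrna3 (6.33-fold), Htr1d (6.08-fold) and Hrh1, a histamine receptor (3.08-fold), were higher in the hypothalamus in every diet but not called on log2(FPKM + 1) values. Mas1, an angiotensin-(1-7) receptor gene outside the list, had 1354, 1141 and 889 counts in the hippocampus against 1, 56 and 21.

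Postsynaptic and plasticity proteins were higher in the hippocampus for 21 of 27 members (77.8%), 20 of them in every diet, and for none in the hypothalamus. The shares of all tested genes were 9.48% and 13.6%. Ddn (dendrin), an mRNA carried into dendrites, had 86296, 72955 and 55145 counts against 2215, 3771 and 1810 (32.7-fold). Camk2a, the plasticity kinase, had 160575, 124460 and 101870 counts against 21396, 24124 and 18431 (6.9-fold, adjusted p = 6.77e-06), while Camk2b was 2.1-fold higher. Itpka (27-fold), Cnksr2 (17.2-fold), Hpca (11.4-fold) and Nrgn (9.52-fold) were of the same kind, and Bdnf, a neurotrophin, was 2.67-fold higher. Ntrk2, the Bdnf receptor, differed by 0.22 ± 0.10 (SE) and was not called, nor were Dlg4, Shank1 and Shank2. Dlg4 (-1.29) and Shank2 (-1.03) were called for the hippocampus on log2(FPKM + 1) values.

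Immediate early genes, which neurons switch on with activity, were higher in the hippocampus for 12 of 17 members (70.6%, beside 9.48% of all tested genes). Egr3 had 5035, 4759 and 3267 counts against 185, 444 and 205 (18.8-fold), Arc 5795, 5804 and 2774 against 356, 664 and 531 (10.4-fold), and Nr4a3 was 7.71-fold higher. The members were not alike: Fos had 661, 706 and 340 counts in the hippocampus and 620, 990 and 791 in the hypothalamus, with overlapping CPM, and Npas4 had 716, 739 and 629 counts in the hypothalamus against 356, 375 and 232 (1.91-fold, not called).

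Ion channel genes were called in both directions. The 83 genes with a symbol starting with Kcn also hold auxiliary subunits and the noncoding Kcnq1ot1. Of them 37 were higher in the hippocampus (44.6%, beside 9.48% of all tested genes). In the hypothalamus 12 were higher (14.5%, beside 13.6% of all tested genes). The counts were 36 and 4 on log2(FPKM + 1) values. In the hippocampus, Kcng3 (44.7-fold), Kcnh3 (15.4-fold), Kcnj4 (8.44-fold), Kcnv1 (6.72-fold), Kcna1 (4.91-fold) and the M-current genes Kcnq5 (4.83-fold) and Kcnq3 (3.93-fold) were higher. Kcnj5, a subunit of G protein-gated channels, had 566, 635 and 492 counts in the hypothalamus against 35, 28 and 17 (18.8-fold, adjusted p = 4.46e-06), whereas its partner subunits Kcnj3 (3.44-fold) and Kcnj6 (2.44-fold) were higher in the hippocampus. Kcna5 (8.19-fold) and Kcnt1, a sodium-activated channel (4.96-fold), were also higher in the hypothalamus. Sodium channels split by subunit: Scn9a had 2093, 1789 and 1369 counts in the hypothalamus against 72, 58 and 71 (22.8-fold), while Scn8a (3.41-fold), Scn3b (2.41-fold) and Scn2a1 (2.15-fold) were higher in the hippocampus. For calcium channels 6 of 25 were higher in the hypothalamus (24.0%) and 7 in the hippocampus (28.0%), beside 13.6% and 9.48% of all tested genes. Among the first were Cacna2d2 (5.68-fold) and the T-type gene Cacna1g (3.51-fold), and among the second Cacng8 (3.63-fold) and Cacnb4 (3.24-fold).

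Guidance and adhesion families were mixed. Of 22 ephrin and Eph receptor genes, 7 were higher in the hippocampus (31.8%) and 2 in the hypothalamus (9.09%), beside 9.48% and 13.6% of all tested genes. In the hippocampus, Epha7 had 7712, 5653 and 4117 counts against 456, 827 and 799 (9.61-fold), and Epha4 was 8.26-fold and Epha6 8.19-fold higher. Those of the hypothalamus were the ligand Efna5 (3.68-fold) and the receptor Epha8 (2.98-fold). Sema3e, a secreted guidance cue, was 13.8-fold higher in the hippocampus, and Sema4g (5.71-fold), Plxna3 (4.86-fold) and Sema4a (4.02-fold) were higher in the hypothalamus. Among Wnt ligands and receptors 4 of 26 (15.4%) were called in each direction, beside 13.6% and 9.48% of all tested genes, with Fzd5 (14.5-fold) highest on the hypothalamus side and Wnt2 (5.42-fold) on the hippocampus side. Of 22 cadherins, 7 were called for the hypothalamus (31.8%) and 4 for the hippocampus (18.2%), beside 13.6% and 9.48% of all tested genes. They included Cdh4 (4.23-fold) for the hypothalamus and Cdh9 (4.24-fold) for the hippocampus. The cadherin counts were 1 and 4 on log2(FPKM + 1) values, 2 and 5 with the pseudocount of 0.1, and 3 and 4 with all 15 libraries in 1 fit. Of 29 semaphorin and plexin genes, 4 were called for the hypothalamus (13.8%, close to the 13.6% of all tested genes). Another 5 were called for the hippocampus (17.2%, beside 9.48% of all tested genes). Under raw library totals the counts were 9 and 3.

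Collagens were higher in the hypothalamus for 25 of 44 tested genes (56.8%), 19 of them in every diet, and in the hippocampus for 3 (6.82%). The shares of all tested genes were 13.6% and 9.48%. Col24a1 had 354, 305 and 259 counts against 15, 1 and 4 (42.7-fold), Col11a1 1396, 2072 and 2217 against 68, 104 and 77 (19.5-fold), and Col2a1 441, 407 and 319 against 29, 14 and 12 (19.3-fold), none with overlap. The basement membrane genes Col4a1 (2.42-fold) and Col4a2 (4.3-fold) were higher too. Col6a1, a meningeal and vascular collagen, was 2.5-fold higher but differed by 0.07 on the log2 scale in DR-AL, the hypothalamus library with the fewest counts on meningeal genes, and Col6a2 also fell under the fold there. On log2(FPKM + 1) values, where low genes count for less, 5 collagens were called for the hypothalamus and 0 for the hippocampus, and 17 and 2 with the pseudocount of 0.1. Dcn, a meningeal proteoglycan gene, was 3.13-fold higher in the hippocampus.

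Imprinted genes, which are read from 1 parental copy, were higher in the hypothalamus for 22 of 38 tested members (57.9%), 19 in every diet. In the hippocampus 2 (5.26%) were higher. The shares of all tested genes were 13.6% and 9.48%. The median log2 difference of the imprinted genes was 1.44. Several lie in clusters (positions from GENCODE, GRCm38). In the chromosome 12 cluster, Dlk1 (109452823 to 109463336), Meg3 (109541001 to 109571726), Rtl1 (109589193 to 109600330), Rian (109603940 to 109661716) and Mirg (109729764 to 109749460) were all higher in the hypothalamus, by 25.9-fold, 10.7-fold, 28.1-fold, 2.15-fold and 13.8-fold. Meg3 is a long noncoding RNA read from the maternal copy, and its locus had 180391, 197656 and 211731 counts in the hypothalamus against 16145, 14759 and 16952. The Meg3, Rian and Mirg counts include those assigned to small RNA names at the same loci. Dio3 (110279068 to 110281097), the thyroid hormone-inactivating enzyme at the end of that cluster, ran the other way with 8, 30 and 12 counts against 119, 152 and 168 (10.8-fold higher in the hippocampus). The groups did not overlap for any of these 6 genes.

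In the Prader-Willi region of chromosome 7, Magel2 (62377010 to 62381640), whose loss impairs hypothalamic function, had 6520, 6217 and 4032 counts in the hypothalamus against 62, 53 and 101 (66.7-fold, adjusted p = 3.49e-05), and its neighbour Ndn (62346569 to 62350262) had 20372, 19991 and 19520 against 5660, 4249 and 3903 (3.81-fold). Snrpn (59982495 to 60140219) differed by -0.31 ± 0.07 (SE) and was not called, and Ube3a (59228750 to 59311536), read from the maternal copy in neurons, was 2.38-fold higher in the hippocampus. At the Peg3 cluster, also on chromosome 7, Zim1 (18.4-fold), Usp29 (4.76-fold) and Peg3 (3.34-fold) were higher in the hypothalamus. On chromosome 6, Calcr (188-fold), Asb4 (56.5-fold) and Peg10 (17.3-fold) were higher, while Sgce, which lies beside Peg10, differed by 0.27 ± 0.07. Igf2, an imprinted growth factor that meninges and choroid plexus also make, had 1977, 5792 and 866 counts against 6723, 4121 and 3986 and did not pass, but was called for the hippocampus on log2(FPKM + 1) values (-1.58), with no filter on low counts (-1.34) and without DR (-2.12). Its highest hypothalamus count was in DR, the library with the highest summed meningeal genes, but Igf2 is itself a member of that sum.

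Most glial and vascular genes stayed under the fold. None of 21 oligodendrocyte, 6 oligodendrocyte precursor and 14 endothelial and mural genes was called by edgeR. DESeq2 called 0 of them as well. In edgeR 27 of the 41 had an unadjusted p under 0.05 at smaller folds, beside 11098 of all 15703 tested genes. Mbp, a myelin protein gene, had log2 differences of -0.89, -0.50 and -0.09 in the order of diets above. All 12 microglia genes had an unadjusted p under 0.05, with no overlap between the regions and log2 differences from -1.11 to -0.32. Of them P2ry12 alone was called, 2.15-fold higher in the hippocampus, and none under raw library totals. Astrocyte genes went both ways: Itih3 had 16104, 15294 and 15231 counts in the hypothalamus against 842, 685 and 617 (19-fold), Agt, the angiotensin precursor gene, was higher in the hypothalamus in every diet, and Slc1a2, the glutamate transporter GLT-1, had 127010, 99156 and 95217 counts in the hippocampus against 37380, 40961 and 38683 (3.14-fold). Slc7a10 was 2.01-fold higher in the hypothalamus, and the other astrocyte genes were not called. Rax (295, 234 and 65 counts against 1, 1 and 0) and Gpr50 (78.2-fold), genes of the tanycytes that line the third ventricle, were higher in the hypothalamus, with DR-AL lowest for both. Crym (24.3-fold) and Dio2 (6.02-fold), which tanycytes also make, were higher in the hippocampus.

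Choroid plexus genes were higher in the hippocampus for 10 of 11 members (90.9%, beside 9.48% of all tested genes). Pituitary genes were higher in the hypothalamus for all 7 tested, 5 of them in every diet, beside 13.6% of all tested genes. The pituitary count was 2 on log2(FPKM + 1) values and 5 with all 15 libraries in 1 fit. Ttr, the transthyretin of the choroid plexus, had 109059, 51236 and 65481 counts in the hippocampus against 124, 82 and 137 (735-fold, adjusted p = 1.98e-06), the first rank of the hippocampus side. Slc4a5, a bicarbonate transporter of the choroid plexus, had 968, 348 and 738 counts against 5, 6 and 10 (108-fold), and its lowest hippocampus count fell in DR as did that of Ttr. Kcnj13 was 18-fold higher in the hippocampus, with 49, 154 and 8 counts in the hypothalamus. Fshb, the follicle-stimulating hormone subunit gene, had 97, 101 and 15 counts in the hypothalamus and 0 in each hippocampus library (at least 20.0-fold higher), Cga, the subunit gene shared by pituitary glycoprotein hormones, was also at 0 there, and Gh had 88, 224 and 18 against 5, 6 and 1. The choroid plexus lies beside the hippocampus and the pituitary stalk below the hypothalamus, and their part in single genes of this comparison was not tested. Slc9a4 (651, 667 and 457 counts against 2, 3 and 0) and 1700007F19Rik (338, 325 and 217 against 0, 2 and 1) completed the first 6 ranks of the hippocampus. In the hypothalamus, B230323A14Rik (443, 861 and 598 counts against 4, 0 and 1) and E030019B13Rik (657, 614 and 387 against 4, 4 and 2), RIKEN transcripts named only by clone, held ranks 10 and 12.

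**Figure D5:**
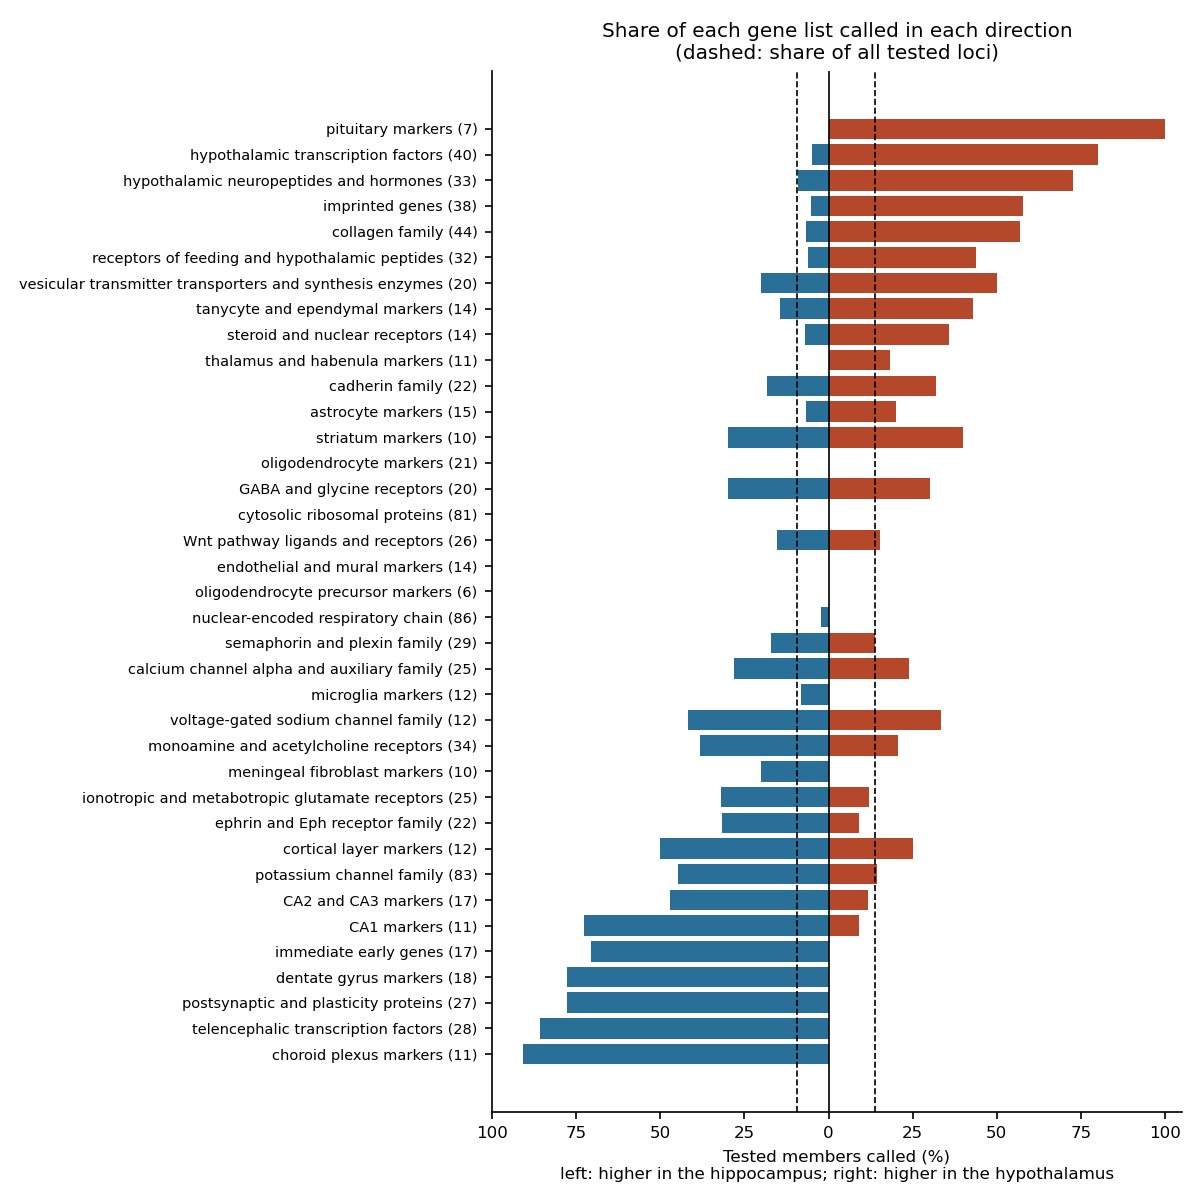
Percent of the tested members of each gene list (number in brackets) that were called higher in the hypothalamus (red, right) or in the hippocampus (blue, left), with dashed lines at 13.6% and 9.48%, the shares of all tested genes. Pituitary, hypothalamic factor, neuropeptide, imprinted and collagen lists extend to the right, and choroid plexus, telencephalic factor, postsynaptic, dentate and immediate early gene lists to the left.

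Most genes used by every cell stayed under the fold. None of 81 cytosolic ribosomal protein genes was called by edgeR or DESeq2 (median log2 difference 0.15, and -0.21 on log2(FPKM + 1) values). Of them 48 had an unadjusted p under 0.05 in edgeR, beside 11098 of all 15703 tested genes. Of 86 nuclear respiratory chain genes 2 were called, Cox6a1 (2.09-fold) and the low-count Cox8b, both higher in the hippocampus. Of 16 reference genes, the neuronal genes Syt1 (2.94-fold), Snap25 (2.52-fold) and Rbfox3 (2.17-fold) were higher in the hippocampus. Actb, beta-actin, stood at 732 ± 40.8 CPM in the hypothalamus and 1266 ± 56.8 in the hippocampus, a difference of -0.79 ± 0.07 (SE) that stayed under the fold, although on log2(FPKM + 1) values it was -1.19 and called. Hsph1 (-0.09 ± 0.06), Ncoa7 (-0.37 ± 0.07) and Csf2rb (0.37 ± 0.31), which the study followed for diet, were not called between the regions.

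Not every called gene held in each diet. Of the called genes, 880 fell below the fold of 2 in at least 1 diet, 544 hypothalamus and 336 hippocampus genes, and 11 changed sign in at least 1 diet. On the hypothalamus side 338 fell short in DR-AL, 170 in AL and 115 in DR. The genes with the widest range over the diets, among called genes with at least 100 counts on average, were Fezf1, Mas1, Otp, Kcnj13 and Hcrt. Fezf1, a ventromedial factor, had 1503, 1043 and 550 counts in the hypothalamus against 0, 0 and 4, so its log2 differences ran from 11.77 in AL to 6.42 in DR-AL. For Otp the range was set by 0 to 9 hippocampus counts. For Hcrt the log2 difference was 7.82 in AL and 12.57 in DR-AL. With 1 library per region and diet, a diet and a library cannot be told apart.

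Levels in liver, epididymal fat and colon took no part in the choice, but they were set against the higher brain region. That region's level helped to choose the called genes, so their shares depend in part on the choice. The difference from all tested genes was not tested. All 3 peripheral tissues lay under a level of 10% of the higher brain region for 339 of the 1599 hypothalamus genes (21.2%), for 415 of the 1153 hippocampus genes (36.0%) and for 10.9% of all tested genes. With liver and colon alone the shares were 39.9%, 48.7% and 18.7%. At least 1 of these tissues exceeded the higher brain region for 46.8% of the hypothalamus genes, 29.1% of the hippocampus genes and 61.8% of all tested genes.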

How the data were processed

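The authors made RNA-Seq libraries from ribosomal RNA-depleted RNA pooled from 5 mice, aligned strand-specific reads and removed duplicates. They deposited raw counts per gene and FPKM values side by side for each library. The submitters' processing notes name mm9 and DESeq2, whereas the methods of the study name mm10, so the build of the counts is uncertain and positions are those of GENCODE (GRCm38) or RefSeq (GRCm38.p6), matched by symbol. The deposited counts of named loci with a mean of at least 10 were scaled by TMM and fitted with edgeR 4.0.16 (quasi-likelihood, R 4.3.3) on diet and region. Counts on unnamed loci made up 0.478% to 0.739% of a library. Diet was the block because both regions of a diet came from the same pool of mice. Deviations of same-diet libraries from their region means correlated at 0.0791, 0.205 and 0.0838. Calls needed 2-fold or larger differences at a p, adjusted by Benjamini and Hochberg's method, under 0.05, and differences within a diet used a prior count of 0.5. CPM and SD are over the 3 diets. For genes at 0 in a region, 3 counts per library served as the floor, which covers counting error only. The members and gene lists were chosen with earlier results of these data known. Named genes were the 12 with the largest smallest-diet difference in each direction (mean count of at least 100), the 5 that varied most over diets, genes named by the study, and list members. Loci with several names numbered 535 of those tested. The alternatives were other scalings, filters, DESeq2 1.42.0, limma 3.58.1 on log2(FPKM + 1) and log2(FPKM + 0.1), no block, other folds and each diet left out. The fit was tested on simulated data. Some genes that the rule names are not reported here.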

Additional observations from a re-analysis of the deposited data

Results flagged for a closer look

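Fmod, a collagen-binding proteoglycan gene, differed between the regions in opposite directions by diet, with a log2 difference (hypothalamus minus hippocampus) of 1.15 in DR but -0.26 in AL and -2.56 in DR-AL. It had 463, 1756 and 105 counts in the AL, DR and DR-AL hypothalamus and 644, 632 and 437 in the hippocampus, was chosen after its values were seen and was not called. The difference between the diets was not tested, since each diet has 1 library per region. The summed meningeal genes of the hypothalamus were likewise highest in DR (338 CPM) and lowest in DR-AL (74.2 CPM), and their part in the values of Fmod was not tested.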

How the results depend on the processing

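The counts of called genes stayed within 1.5 times of those reported under RLE factors, raw library totals, both other filters on low counts, DESeq2, all 15 libraries in 1 fit and the removal of loci with several names. On log2(FPKM + 1) values 471 genes were higher in the hypothalamus and 349 in every diet, and on log2(FPKM + 0.1) values 1207 and 842. Low genes weigh less with a larger pseudocount, and the part of the authors' FPKM scaling was not tested. With a fold of 1.5, 3403 and 2656 genes were higher in the hypothalamus and hippocampus, 2746 and 2110 of them in every diet, and with a fold of 4 the counts were 809 and 485, and 545 and 360. Leaving out 1 diet gave 1965 to 2214 genes higher in the hypothalamus and 1427 to 1563 in the hippocampus, and 1656 to 1922 and 1237 to 1355 in each remaining diet. Without the replicate block, 2156 and 1486 genes were called, against 2143 and 1489 with the pairing by diet, and of the named genes the block changed the call of Gbx2 (called without it). Of 210 called genes named here, none changed direction and 40 lost the call under at least 1 alternative, 32 of them on log2(FPKM + 1) values. Without AL the calls of Col6a1 and Vip were lost and those of Crh, Gbx2 and Sst gained, without DR those of Col6a1, Penk and Slc7a10 were lost and those of Igf2 and Npas4 gained, and without DR-AL those of Adra1b and Vip were lost and those of Calb1 and Lepr gained. Crh, for example, had a log2 difference of 1.27 without AL. Genes that changed sign under an alternative were not called. On log2(FPKM + 1) and log2(FPKM + 0.1) values the log2 difference was -0.041 and -0.044 for Fos, -0.0049 and -0.0054 for Sgce and -0.40 and -0.41 for Npy, and on the first it was -0.0012 for Npas4. Raw library totals gave 0.14 for Hsph1 and 0.059 for Insr, DESeq2 -0.0026 for Npy, and the fit without the block 0.20 for Fmod. With 1 diet left out, Fmod ran from -1.29 to 0.49 and Npy from -0.29 to 0.53. The cause was not tested. Calls gained on log2(FPKM + 1) values were those of Actb, Dlg4, Igf2, Shank2 and Sst. On list counts, log2(FPKM + 1) values gave 19 neuropeptide, 23 hypothalamic factor and 7 peptide receptor genes for the hypothalamus, and leaving out 1 diet gave 24 to 26, 32 to 35 and 14 to 15. The nuclear receptor, monoamine receptor, calcium channel and Eph medians turned positive under raw library totals (0.09, 0.10, 0.01 and 0.02). With 3 pairs of pooled libraries, variation between mice was not measured.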
